A study of Mus musculus with 18 samples.

Results

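The 9 genes described here, Penk, Adora2a, Gpr6, Tac1, Pdyn, Ppp1r1b, Pde10a, Rgs9 and Rarb, are known for high expression in the projection neurons of the striatum. They were taken as a fixed list of names, without the dopamine receptors, and all 9 were found among the 56953 gene identifiers counted in the 18 libraries. The tissue is labelled frontal cortex, and all groups are of the line B6;D2-Tg(S100B-EGFP)1Wjt/J, whose name gives an EGFP transgene under S100B. Mice received daily intraperitoneal injections of clozapine at 10 mg/kg, risperidone at 1 mg/kg or vehicle over 14 days between postnatal days 60 and 74, and were killed on day 75. Tissue of 5 animals was combined into a pool, and there were 2 pools per treatment, 1 in batch 2 and 1 in batch 1. CD45-captured microglia, HepaCAM-captured astrocytes and Thy1-captured neurons were taken in turn from every pool, so 6 pools gave 18 libraries in 9 groups of n = 2. The labels give the mice as male and female in 1 place and as male in another.

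Striatal projection neurons are inhibitory neurons that receive cortical and dopamine input and form the direct and the indirect pathway of the basal ganglia. Direct pathway cells carry Tac1, the precursor of substance P, and Pdyn, the precursor of dynorphins. Indirect pathway cells carry Penk, the enkephalin precursor, with the adenosine receptor gene Adora2a and the orphan receptor gene Gpr6. Both kinds of cell carry Ppp1r1b (DARPP-32, a phosphatase inhibitor downstream of cAMP), the cyclic nucleotide phosphodiesterase gene Pde10a, the G protein regulator gene Rgs9 and the retinoic acid receptor gene Rarb. None of the 9 is exclusive to the striatum. Cortical interneurons can carry Penk, Tac1 and Pdyn, and deep cortical neurons can carry Ppp1r1b. In cortical tissue their joint level can serve as a measure of striatal tissue in a pool. Both drugs are antipsychotics that bind dopamine and serotonin receptors.

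RefSeq promoter windows, from 250 bases before to 50 after a start site on GRCm38.p6, were available for 6 of the 9 genes in 8 windows. The 3 shown are those that hold a searched motif, since cAMP and retinoic acid are signals known to act on genes of this kind, and base positions are counted from the start site. Gpr6 (chr10:41072241-41072540, minus strand) has the full cAMP response element TGACGTCA in capitals, at -78 to -71. Tac1 (chr6:7554811-7555110, plus strand) has the core CGTCA of that element in capitals at -197 to -193 and at -43 to -39. Rarb (chr14:16575427-16575726, minus strand) has GTTCA and AGTTCA with 5 bases between them in capitals, at -52 to -37, the direct repeat known from its retinoic acid response element.
Gpr6: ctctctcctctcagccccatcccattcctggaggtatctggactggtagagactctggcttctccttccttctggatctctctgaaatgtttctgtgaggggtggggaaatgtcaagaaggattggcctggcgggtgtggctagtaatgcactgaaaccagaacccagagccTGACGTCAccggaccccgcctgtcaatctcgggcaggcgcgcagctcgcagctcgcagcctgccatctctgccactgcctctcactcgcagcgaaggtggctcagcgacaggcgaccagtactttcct
Tac1: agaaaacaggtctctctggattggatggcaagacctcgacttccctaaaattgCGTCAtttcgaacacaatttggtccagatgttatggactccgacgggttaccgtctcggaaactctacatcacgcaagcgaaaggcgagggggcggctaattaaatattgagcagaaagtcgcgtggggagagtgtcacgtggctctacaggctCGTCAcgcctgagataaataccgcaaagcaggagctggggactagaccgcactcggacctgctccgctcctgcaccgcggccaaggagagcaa
Rarb: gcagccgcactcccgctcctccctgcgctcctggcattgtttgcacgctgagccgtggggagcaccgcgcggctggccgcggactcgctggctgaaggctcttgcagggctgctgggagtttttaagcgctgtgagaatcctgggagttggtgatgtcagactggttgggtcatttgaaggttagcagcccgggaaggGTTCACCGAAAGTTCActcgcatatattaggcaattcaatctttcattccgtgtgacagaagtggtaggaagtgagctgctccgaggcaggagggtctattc

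On either strand the full element TGACGTCA was found in 1.79% of 32851 windows, its core TGACG or CGTCA in 20.8%, and the repeat in 0.0335%. A full element holds the core on both strands, so the Gpr6 window also counts under the core. The windows of Pdyn, Pde10a and Rgs9 hold none of these letters. A match describes the sequence only.

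Libraries held 4.71 to 13.39 M counts assigned to genes, with a median of 7.44 M. Each fraction carried its own markers, as the summed CPM (counts scaled to the assigned total of the library) of lists of 10 genes. Microglial markers summed to 3024 to 5947 CPM in microglia fractions, 291 to 890 CPM in astrocyte fractions and 82.4 to 555 CPM in neuron fractions. Astrocyte markers summed to 1970 to 4733 CPM in microglia fractions, 11538 to 17919 CPM in astrocyte fractions and 3613 to 6688 CPM in neuron fractions. The 10 pan-neuronal genes summed to 1160 to 4498 CPM in microglia fractions, 2220 to 4439 CPM in astrocyte fractions and 5534 to 9113 CPM in neuron fractions. No fraction was therefore free of neuronal RNA. The 10 oligodendrocyte markers summed to 654 to 2948 CPM in microglia fractions, 9691 to 36827 CPM in astrocyte fractions and 5361 to 28139 CPM in neuron fractions. Their mean in astrocyte fractions, 21428 CPM, was above the 14239 CPM of the astrocyte markers. In neuron fractions it was 13429 CPM, above the 7247 CPM of the pan-neuronal genes. Cortical glutamatergic markers reached 4396 to 8539 CPM in neuron fractions, and all 12 were found. The 9 striatal projection neuron genes summed to 405 to 884 CPM there.

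All 9 striatal projection neuron genes were detected in all 18 libraries, and all passed the low-count filter of every fit. On the per-length scale of TPM (counts divided by exon length and scaled to a common total), averaged over the 6 pools of the neuron fraction, Penk was the most abundant at 220.2 ± 129 TPM (SD, n = 6). Pde10a followed at 48.2 ± 18.9 TPM, Ppp1r1b at 46.1 ± 23.3 TPM and Rgs9 at 25.9 ± 7.46 TPM. Tac1 averaged 11.9 ± 6.88 TPM and Pdyn 10.7 ± 5.75 TPM, then came Rarb at 6.78 ± 2.21 TPM, Adora2a at 6.52 ± 2.64 TPM and Gpr6 at 4.26 ± 2.38 TPM. Penk stood above Pde10a, and Rgs9 above Tac1, by more than the SD of either gene, and the other neighbours in this order lay within the larger of their SDs. Penk was also the most abundant of the 9 in microglia fractions, at 113 ± 88.4 TPM, and in astrocyte fractions, at 101 ± 48.0 TPM.

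Exon overlap limits the reading of 3 of the 9, since counting used no strand. Of the 5265 exon bases of Rarb on GRCm39 (chr14:5650540-6038924, plus strand), 1793 overlap Top2b on the other strand, which had 68.7 to 134 CPM against 7.95 to 21.3 CPM for Rarb. Reads of the 2 genes cannot be told apart there. Ppp1r1b (chr11:98239230-98248622, plus strand) shares 460 of 2928 exon bases with 1700003D09Rik, at 7.85 to 31.6 CPM. Penk (chr4:4133531-4138819, minus strand) shares 233 of 1634 with A830012C17Rik, at no more than 6.13 CPM.

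**Figure D1:**
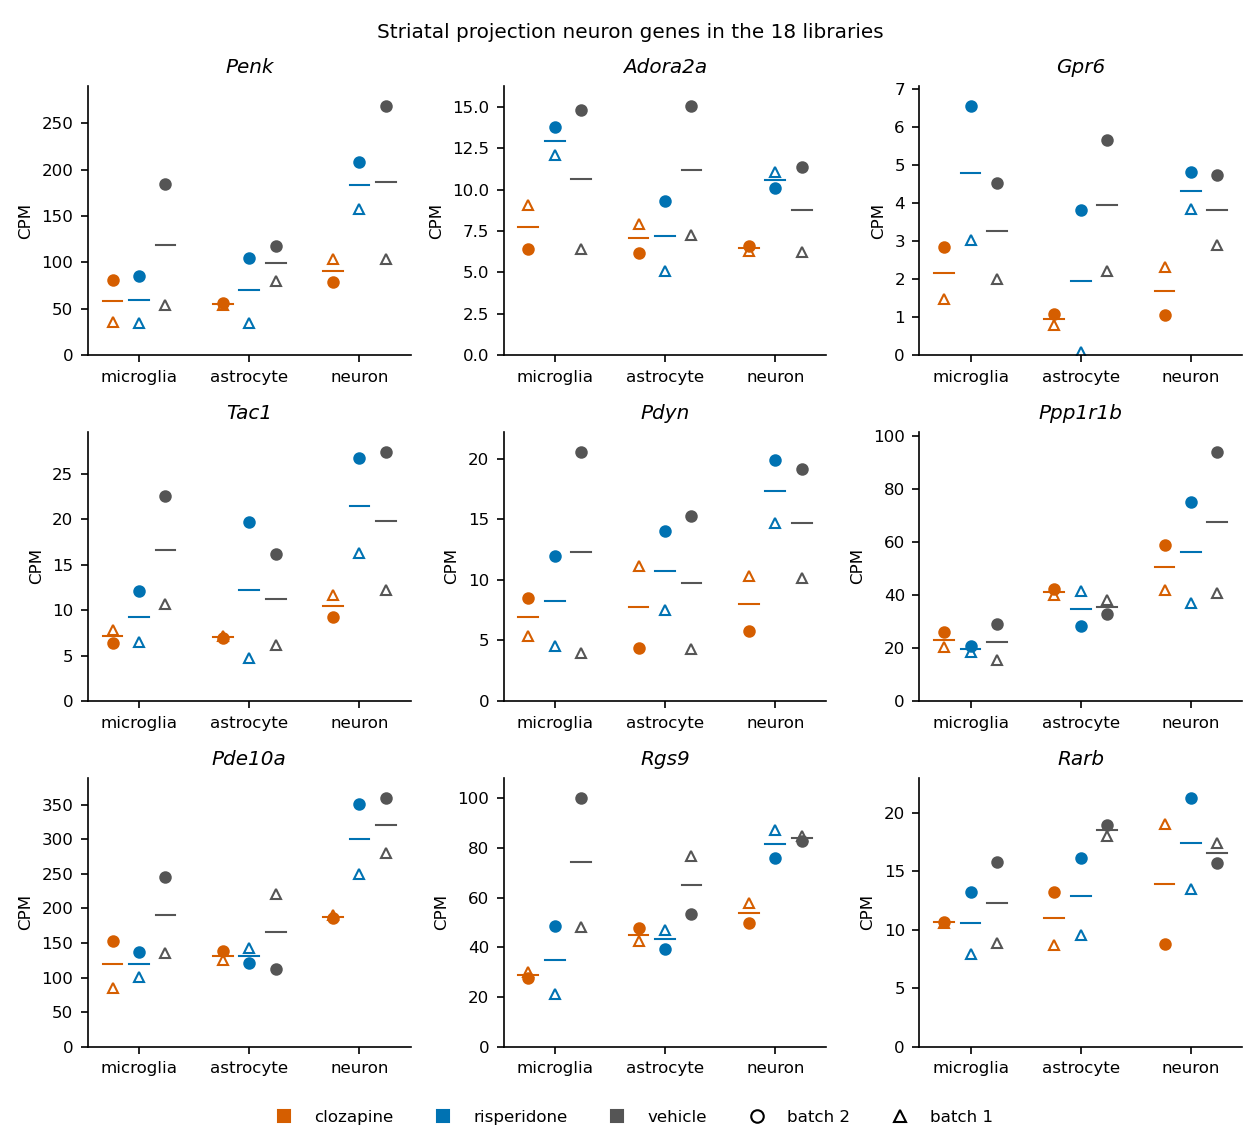
Level of each of the 9 striatal projection neuron genes in CPM in all 18 libraries, by fraction and treatment; filled circles are batch 2, open triangles batch 1, and short lines are means of the 2 pools. The Penk panel reaches its highest level, 269 CPM, in the vehicle batch 2 pool of the neuron fraction.

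Among the indirect pathway genes, Penk had 81.5 and 35.7 CPM in clozapine microglia fractions in batches 2 and 1, 85.0 and 34.4 CPM with risperidone, and 184 and 53.9 CPM with vehicle. Astrocyte fractions had 56.6 and 53.8 CPM with clozapine, 105 and 34.8 CPM with risperidone, and 118 and 80.5 CPM with vehicle, again in batches 2 and 1. Neuron fractions had 78.8 and 103 CPM with clozapine, 209 and 158 CPM with risperidone, and 269 and 104 CPM with vehicle. The vehicle pool of batch 2 was highest in all 3 fractions, and in neuron fractions the vehicle pools lay on either side of both risperidone pools.

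Adora2a, the receptor for adenosine on indirect pathway cells, was low throughout. It had 6.4 and 9.05 CPM in clozapine microglia fractions in batches 2 and 1, 13.7 and 12.1 CPM with risperidone, and 14.8 and 6.42 CPM with vehicle. In neuron fractions it had 6.57 and 6.31 CPM with clozapine, 10.1 and 11.0 CPM with risperidone, and 11.3 and 6.25 CPM with vehicle. The vehicle and clozapine pools overlapped in both fractions, and in neuron fractions both risperidone pools lay above both clozapine pools. Astrocyte fractions ranged from 5.07 to 15.0 CPM. Gpr6, a receptor known to signal through cAMP without an added ligand, rested on 1 to 59 counts per library. It had 1.05 and 2.31 CPM in clozapine neuron fractions in batches 2 and 1, 4.81 and 3.83 CPM with risperidone, and 4.74 and 2.91 CPM with vehicle. The risperidone batch 1 astrocyte library had 1 Gpr6 count, against 29 in the vehicle batch 2 astrocyte library.

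Of the direct pathway peptides, Tac1 had 6.4 and 7.83 CPM in clozapine microglia fractions in batches 2 and 1, 12.1 and 6.43 CPM with risperidone, and 22.5 and 10.7 CPM with vehicle. Its neuron fractions had 9.26 and 11.6 CPM with clozapine, 26.7 and 16.3 CPM with risperidone, and 27.4 and 12.2 CPM with vehicle. Its astrocyte fractions had 6.95 and 7.10 CPM with clozapine, 19.7 and 4.69 CPM with risperidone, and 16.2 and 6.17 CPM with vehicle. The risperidone and vehicle pools of batch 2 were the highest pair in every fraction, and the clozapine pool of batch 2 was lowest in microglia and neuron fractions. Pdyn had 5.75 and 10.3 CPM in clozapine neuron fractions in batches 2 and 1, 19.9 and 14.7 CPM with risperidone, and 19.2 and 10.2 CPM with vehicle. Its microglia fractions ranged from 3.99 to 20.6 CPM and its astrocyte fractions from 4.27 to 15.2 CPM, with the vehicle batch 2 pool highest in both. The lowest Pdyn levels lay with the vehicle batch 1 pool in both of these fractions.

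Of the signalling genes of both pathways, Pde10a, which breaks down cAMP and cGMP, had 186 and 191 CPM in clozapine neuron fractions in batches 2 and 1, 351 and 249 CPM with risperidone, and 360.2 and 280.4 CPM with vehicle. The 2 clozapine pools were the lowest of the 6. Rgs9, which speeds the shut-off of G proteins, had 49.7 and 57.9 CPM in clozapine neuron fractions, 75.9 and 87.4 CPM with risperidone, and 82.8 and 84.9 CPM with vehicle, in the same order of batches. Its clozapine pools too were the 2 lowest. In microglia fractions Rgs9 had 27.7 and 30.3 CPM with clozapine, 48.4 and 21.4 CPM with risperidone, and 100.3 and 48.4 CPM with vehicle. The vehicle pool of batch 2 stood above all other microglia pools.

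Ppp1r1b, which turns dopamine and cAMP signals into phosphatase inhibition, had another order of pools. Its neuron fractions had 58.9 and 41.9 CPM with clozapine in batches 2 and 1, 75.2 and 37.1 CPM with risperidone, and 94.0 and 40.7 CPM with vehicle. Batch 2 was higher in all 3 treatments. Its astrocyte fractions kept to a narrow 28.2 to 42.1 CPM and its microglia fractions to 15.6 to 28.9 CPM. Rarb, the receptor through which retinoic acid acts on transcription, ranged from 7.95 to 15.8 CPM in microglia fractions, from 8.70 to 19.0 CPM in astrocyte fractions and from 8.81 to 21.3 CPM in neuron fractions. Its lowest neuron library was the clozapine pool of batch 2 and its highest the risperidone pool of batch 2.

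The comparison of fractions asks which captured cells held these transcripts. All 9 were lower on average in microglia fractions than in neuron fractions, and 7 were called, at an adjusted p under 0.05 in edgeR's quasi-likelihood test with the pool as a block. Of all 28667 genes tested, 21.6% were called lower in this comparison. Ppp1r1b fell by 1.80 on the log2 scale (SE 0.29, edgeR adjusted p = 5.59e-05) and Penk fell by 1.43 (SE 0.27, edgeR adjusted p = 0.000336). Pde10a fell by 1.31, Rgs9 by 1.14, Tac1 by 1.02, Pdyn by 0.95 and Rarb by 0.88. Adora2a and Gpr6 did not pass, with log2 differences of -0.13 (SE 0.20) and -0.33 (SE 0.47). On plain CPM, without the composition scaling of the fit, Adora2a averaged 10.4 ± 3.67 CPM in microglia fractions and 8.60 ± 2.47 CPM in neuron fractions (SD, n = 6), the other direction. The microglia fraction had the higher Adora2a level in 5 of 6 pools. For Gpr6 the means lay within their SDs, at 3.40 ± 1.86 CPM in microglia fractions and 3.28 ± 1.47 CPM in neuron fractions. Its microglia fraction was the higher in only 2 of 6 pools. The median log2 difference of the 9 was -1.02, against 0.35 for all genes tested.

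Astrocyte fractions showed the same direction for all 9 against neuron fractions. Here 6 were called lower, with a background of 11.5% of all genes. Penk fell by 1.40 (SE 0.27, edgeR adjusted p = 0.00221), Tac1 by 1.22 (SE 0.21, edgeR adjusted p = 0.00136) and Pde10a by 1.19 (SE 0.30, edgeR adjusted p = 0.00937). Ppp1r1b fell by 0.90, Pdyn by 0.89 and Rgs9 by 0.82. Gpr6, Rarb and Adora2a did not pass, at -1.26, -0.56 and -0.42. The median of the 9 was -0.90, against 0.25 for all genes. Leaving out the risperidone pool of batch 2 left 2 genes called, and leaving out the clozapine pool of batch 2 left 3. Single libraries also decided this count. It was 3 without the astrocyte library of vehicle batch 2 or risperidone batch 2, or the neuron library of risperidone batch 2, and 9 at most among the 18 libraries left out in turn.

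Between microglia and astrocyte fractions only Ppp1r1b was called, lower by 0.90 on the log2 scale in microglia fractions (log2 difference -0.90, SE 0.29, edgeR adjusted p = 0.0305). Its level was 21.7 ± 4.90 CPM in microglia fractions and 37.1 ± 5.53 CPM in astrocyte fractions (SD, n = 6). The background was 9.54% of genes called lower. Of the other striatal genes Gng7 was called lower, at -0.95, and Actn2 higher, at 0.89. The call was lost without any 1 of 7 libraries, all of batch 1 except the microglia library of risperidone batch 2. Those 7 were the microglia libraries of clozapine batch 1, risperidone batch 1 and vehicle batch 1, the astrocyte libraries of the same 3 pools, and that 1 of batch 2.

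**Figure D2:**
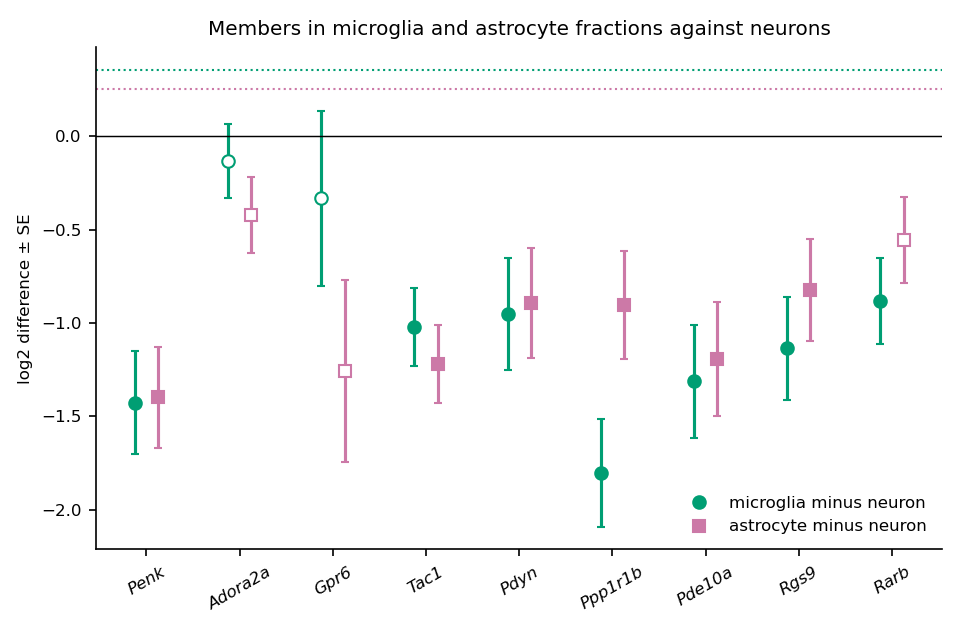
Log2 difference with its SE for each of the 9 striatal projection neuron genes, microglia minus neuron fractions (circles) and astrocyte minus neuron fractions (squares), from edgeR over 18 libraries with the pool as a block. Filled symbols passed an adjusted p under 0.05, the solid line is 0, and dotted lines are the medians of all genes, 0.35 and 0.25.

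Set against the neuronal RNA in each library, the order of fractions turned round. Per 1000 counts of the pan-neuronal list, Penk averaged 32.5 ± 11.8 in microglia fractions, 26.6 ± 16.9 in astrocyte fractions and 21.5 ± 9.03 in neuron fractions (SD, n = 6). Pde10a averaged 66.1 ± 22.4, 47.4 ± 12.8 and 38.1 ± 10.7 on that scale in the microglia, astrocyte and neuron fractions. Rgs9 averaged 21.0 ± 9.44, 17.0 ± 4.95 and 10.6 ± 3.77 in the same order. For 8 of the 9 the microglia fraction was above the neuron fraction in 6 of 6 pools, and Ppp1r1b was above it in 3. For all 9 the astrocyte fraction was above the neuron fraction in at least 4 of 6 pools. Other lists turned too. On this scale GABAergic interneuron genes summed to 180 to 236 in microglia fractions and 86.9 to 150 in neuron fractions. Other striatal genes summed to 168 to 396 and 127 to 206. The glutamatergic list overlapped, at 612 to 1010 and 794 to 1060. The pan-neuronal genes, the divisor, had a median log2 difference of -1.84, microglia minus neuron fractions. These ratios were not tested.

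Related gene lists lay beside these differences. Of 21 other striatal projection neuron genes tested, 12 were called lower in microglia than in neuron fractions and 13 in astrocyte than in neuron fractions, none higher. Scn4b, a sodium channel subunit gene, differed by -1.38 in microglia fractions and by -1.24 in astrocyte fractions, each against neuron fractions. Rxrg, Sp9, Ano3, Foxp2, Rasd2, Gng7, Adcy5, Gnal and Lrrc10b were called lower in both comparisons, Syndig1l only in the test of microglia fractions, and Actn2 and Pde1b only in that of astrocyte fractions. Of 10 genes for cAMP and G protein partners, 9 were called lower in microglia fractions and 10 in astrocyte fractions. Adcy5, Gnal, Gng7, Pde1b and Rxrg are in this list and in that of the other striatal genes, so these counts overlap. Prkaca, the catalytic subunit of protein kinase A, was at -1.56 and -0.96 and Prkar2b, a regulatory subunit, at -1.75 and -1.47. Oprd1, the opioid receptor to which enkephalins bind, at -1.22 and -1.17, and Pcsk2, an enzyme that cuts peptide precursors, at -1.25 in both, fell in both comparisons, with 5 of 9 genes of the peptide processing and receptor list called lower in microglia fractions and 4 of 9 in astrocyte fractions. All 10 pan-neuronal genes were called lower in both comparisons, with a median of -1.84 in microglia and -1.40 in astrocyte fractions.

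Drd1, the dopamine receptor of direct pathway cells, was called lower in both, at -1.08 and -1.11. Drd2, the receptor of indirect pathway cells, was called only in astrocyte fractions, at -1.14. Drd3 was called higher in microglia fractions, at 1.37. It fell below the low-count filter in the fits of the neuron fraction, where 2 of the 3 receptor genes were tested. In the comparison of fractions it was kept through the other fractions, so its direction was largely set by the filter and its call is no support. Of the 5 markers of striatal cholinergic neurons, 5 were higher on average in microglia fractions and 4 in astrocyte fractions, with medians of 0.93 and 0.83. Of them only Zic4 was called, higher in both at 0.85 and 1.09. Their summed level was 13.0 to 38.0 CPM in microglia fractions, 8.73 to 50.6 CPM in astrocyte fractions and 6.57 to 16.7 CPM in neuron fractions.

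The comparison of pools asks whether the genes went with the dissected tissue, whatever the captured cell. Each pool was dissected apart, and its treatment and batch cannot be told apart from the dissection in this test. In bulk RNA, fewer cells of a type and less RNA per cell cannot be told apart either. The edgeR F test over the 6 pools called 0 of the 9 (12 of 28667 genes, 0.0419%). At an unadjusted p under 0.05 it had 4 of the 9, beside 6.22% of all genes tested. DESeq2 called 3, Tac1, Penk and Pdyn, where it called 4.17% of all genes it tested. Tac1 had the smallest edgeR adjusted p = 0.0989, with a DESeq2 adjusted p = 6.07e-06. Penk had an edgeR adjusted p = 0.337 and a DESeq2 adjusted p = 0.00076, and Pdyn had adjusted p = 0.451 in edgeR and 0.0108 in DESeq2. Adora2a was the fourth under 0.05 unadjusted. Gpr6, Rgs9, Rarb, Pde10a and Ppp1r1b were not, and DESeq2 gave Gpr6 no adjusted value. No single library left out led edgeR to call any of the 9.

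**Figure D3:**
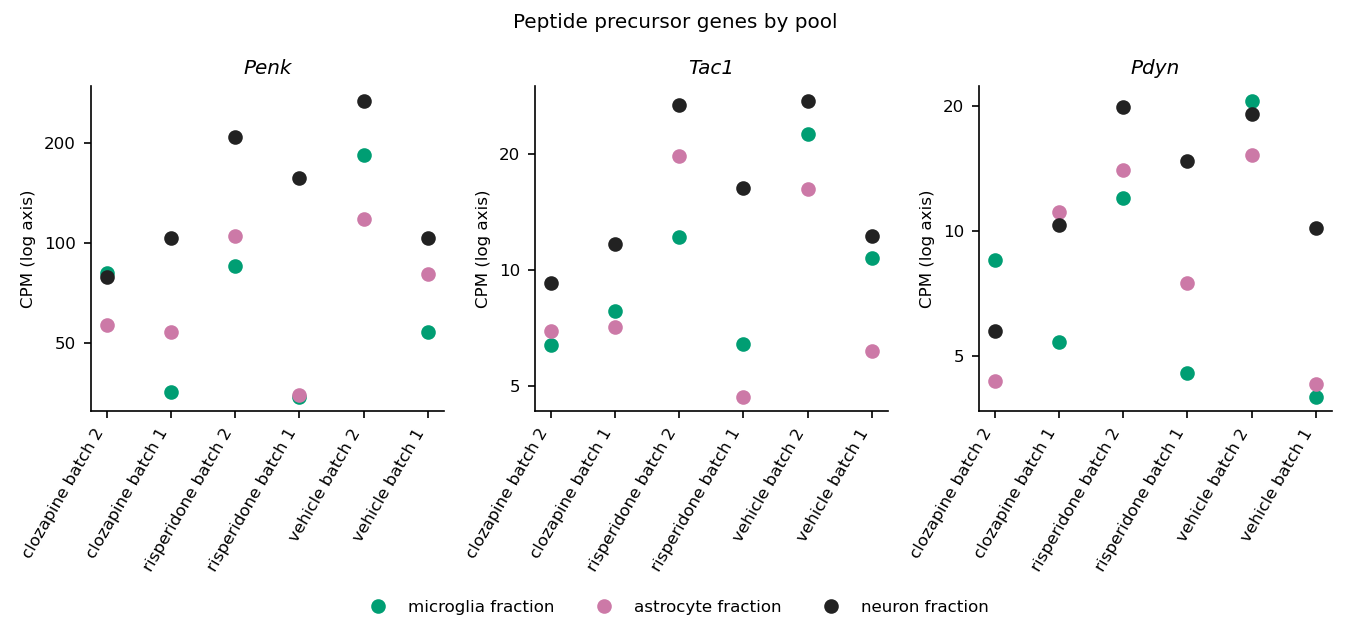
Penk, Tac1 and Pdyn in CPM (log axis) in the 6 pools, with 1 point for each fraction. In the risperidone batch 2 and vehicle batch 2 pools all 3 fractions sit high, as for Tac1, whose neuron points there are 26.7 and 27.4 CPM, while the clozapine batch 2 pool has 9.26 CPM.

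Over the 9 genes and 3 fractions, which gives 27 sets of 6 libraries that share pools, the vehicle pool of batch 2 was highest in CPM in 18 and the risperidone pool of batch 2 second in 14. The clozapine pool of batch 2 was lowest in 9 of 27 in CPM. Per 1000 pan-neuronal counts it was lowest in 24 of 27, including all 9 genes in microglia fractions, 7 in astrocyte fractions and 8 in neuron fractions. The pan-neuronal sum that divides this scale was highest in that same pool, at 4498, 4439 and 9113 CPM in microglia, astrocyte and neuron fractions. The peptide processing and receptor list was also lowest there in all 3 fractions, at 172, 375 and 124. So were the lists of glial markers, which puts the low place beyond the striatal genes. In microglia, astrocyte and neuron fractions of that pool, microglial markers had 735, 70.8 and 9.04. Astrocyte markers had 562, 2599 and 396 there, and oligodendrocyte markers 219, 2652 and 588. The GABAergic interneuron list was lowest there only in microglia fractions, at 180, and the glutamatergic list in none. The part of the divisor in this order was not tested. On that scale Penk had 8.65 and 15.8 in clozapine neuron fractions in batches 2 and 1, 25.8 and 28.5 with risperidone, and 32.7 and 17.3 with vehicle. Gpr6 had 0.115 and 0.353 with clozapine, 0.596 and 0.693 with risperidone, and 0.577 and 0.485 with vehicle. Both genes were at their lowest in the clozapine pool of batch 2, and both were lower in each clozapine pool than in any other neuron library.

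Other lists were ordered in several ways. In the neuron fraction the cortical glutamatergic list summed to 8539 and 6934 CPM with clozapine in batches 2 and 1, 7657 and 4396 CPM with risperidone, and 6985 and 5826 CPM with vehicle, highest in the pool where the 9 genes were low. The 4 olfactory bulb projection neuron genes summed to 72.3 and 18.4 CPM with clozapine, 5.63 and 22.5 CPM with risperidone, and 49.5 and 29.4 CPM with vehicle. Eomes, a transcription factor of olfactory bulb projection neurons, had 10.7 CPM in the clozapine batch 2 neuron library and 0.163 CPM in that of risperidone batch 2. The cholinergic list summed to 6.57 and 8.80 CPM with clozapine, 11.4 and 16.7 CPM with risperidone, and 12.9 and 16.6 CPM with vehicle. The GABAergic interneuron list was high in all 3 pools of batch 2, at 1219 CPM with clozapine, 1078 CPM with risperidone and 1233 CPM with vehicle, against 569, 615 and 585 CPM in batch 1. The part of these cell types in the levels of the 9 genes was not tested.

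**Figure D4:**
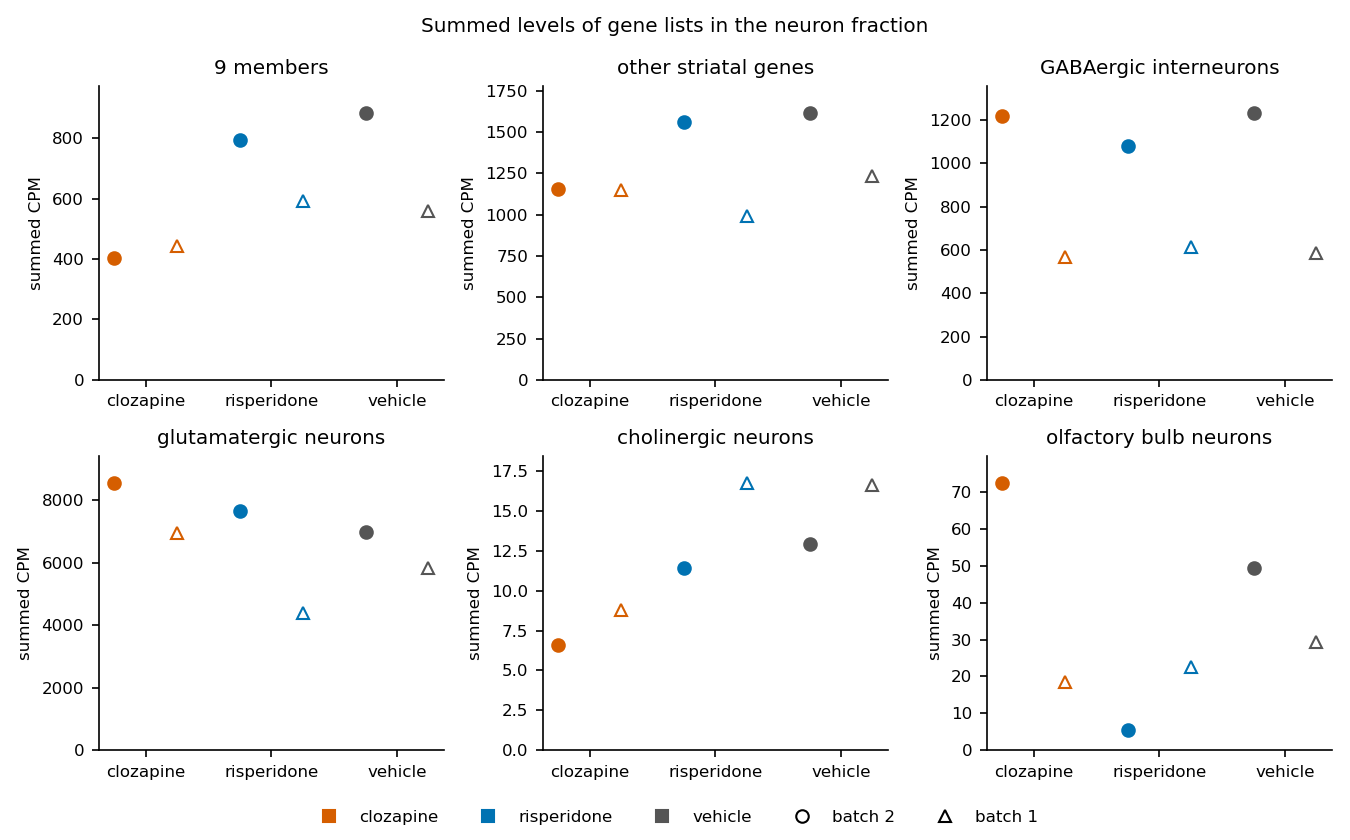
Summed CPM of 6 gene lists in the 6 neuron fraction libraries, by treatment; filled circles are batch 2 and open triangles batch 1. The 9 striatal projection neuron genes are lowest with clozapine, at 405 and 443 CPM, where the glutamatergic list has 8539 and 6934 CPM.

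Across the 18 libraries, with the mean of each fraction removed, each gene was correlated with the mean of the other 8. The 18 points share 6 pools and differ in depth, so these r values are descriptions. Penk had the highest, r = 0.93, then Tac1 at 0.75, Pdyn at 0.73, Rarb at 0.67, Pde10a and Rgs9 at 0.63, Adora2a at 0.59 and Gpr6 at 0.47, and Ppp1r1b had the lowest at 0.41. Among pairs, Penk and Tac1 reached 0.83 and Pde10a and Rgs9 0.81, whereas Ppp1r1b and Gpr6 had -0.20. Among the genes outside the list with the pattern most like the mean of all 9 were Scn4b at 0.91, Cacna2d2 at 0.89, Epdr1 at 0.88, L1cam and Slit3 at 0.85, and Slitrk3, Abca3, Slc39a14 and Olfm3 at 0.84. Drd1 had 0.79 and Drd2 0.68. The cholinergic markers ranged from -0.29 for Zic4 to 0.18 for Slc5a7. The other striatal projection neuron genes ranged from -0.26 for Isl1 to 0.91 for Scn4b, and Drd3 had -0.18. High values were not confined to striatal genes. GABAergic interneuron genes ranged from -0.03 for Calb2 to 0.76 for Lamp5, and pan-neuronal genes from 0.19 for Map2 to 0.73 for Syp. Astrocyte markers ranged from -0.33 for Slc1a3 to 0.73 for Gfap.

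The drug comparisons ask whether 14 days of clozapine or risperidone changed these transcripts in each fraction. No gene of the 9 passed in any of the 9 comparisons in edgeR's quasi-likelihood test, nor did any other gene (0.0% of 25510 to 32846 genes tested). Between 0.645% and 7.38% of genes in a comparison had an unadjusted p under 0.05. DESeq2 called 0 of the 9 in each comparison, and 0 to 19 of all genes. The vehicle libraries are shared by both drug comparisons of a fraction, so these are not independent.

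In microglia fractions the 9 genes were mostly lower with either drug. With clozapine against vehicle 8 of 9 were lower, with a median log2 difference of -0.58 against -0.01 for all genes, and 2 had an unadjusted p under 0.05. Rgs9 differed by -1.29 (SE 0.42) and Tac1 by -1.16 (SE 0.44), and both lay lower within batch 2, at -1.67 and -1.60, and within batch 1, at -0.69 and -0.46. With risperidone against vehicle 7 of 9 were lower, with a median of -0.77 against 0.02 for all genes. Rgs9 differed by -1.29 (SE 0.42), Tac1 by -1.03 (SE 0.44) and Penk by -1.19 (SE 0.58), of which the first 2 had an unadjusted p under 0.05. Of the 9, 5 were lower in both batches with clozapine and 6 with risperidone. With the batch as a block, 4 of 9 had an unadjusted p under 0.05 for either drug, Penk and Pde10a added, and still 0 passed, Penk with risperidone at -1.08 and an edgeR adjusted p = 0.335. Between the drugs the median was 0.03, with 5 of 9 higher and 4 lower with clozapine and 0 at an unadjusted p under 0.05. Against vehicle, 12 of the 21 other striatal genes were lower and 9 higher with each drug. Their medians were -0.08 with clozapine and -0.34 with risperidone. GABAergic interneuron genes had 9 of 14 higher with clozapine and 13 of 14 lower with risperidone, with medians of 0.16 and -0.59. Glutamatergic markers had 11 of 12 higher and 11 of 12 lower, with medians of 0.29 and -0.42. No gene of these lists was called, and their part was not tested.

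Penk with clozapine against vehicle differed by -0.92 in microglia fractions and turned to 0.22 without the vehicle library of batch 2, where both clozapine libraries were set against vehicle batch 1 alone. Within batches it was lower in both, at -0.99 in batch 2 and -0.61 in batch 1, and with the batch as a block it was -0.83, with an edgeR adjusted p = 0.817. The summed pan-neuronal level in the vehicle microglia libraries was 3554 and 1432 CPM in batches 2 and 1, beside 4498 and 1508 CPM with clozapine and 2480 and 1160 CPM with risperidone. Of the 10 pan-neuronal genes 9 were higher with clozapine, with a median of 0.29, and 9 were lower with risperidone, with a median of -0.62. None was called, and their part in these differences was not tested.

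In neuron fractions, with clozapine against vehicle all 9 were lower, with a median of -0.64 against -0.03 for all genes and 0 at an unadjusted p under 0.05. Gpr6 differed by -1.08 (SE 0.68), Penk by -0.93 (SE 0.52), Tac1 by -0.82 (SE 0.50) and Pdyn by -0.76 (SE 0.49). Within batch 2 all 9 were lower, with a median of -0.88, and within batch 1 only Gpr6, Pde10a and Rgs9 were, with a median of 0.23. Without the vehicle library of batch 2 Penk turned to 0.10. With risperidone against vehicle 5 of 9 were higher and 4 lower, with a median of 0.09, and 0 had an unadjusted p under 0.05. Penk differed by -0.08 there, and by 0.94 without the vehicle library of batch 2 and 0.33 without the risperidone library of batch 1. With clozapine against risperidone all 9 were lower, with a median of -0.53 against -0.05 for all genes and 0 at an unadjusted p under 0.05. Pdyn differed by -0.96 (SE 0.49) and Tac1 by -0.91 (SE 0.50). Within batch 2 the median of the 9 was -1.28, and within batch 1 it was -0.08, with 6 of 9 lower. The 21 other striatal genes had a median of -0.36 with clozapine against vehicle, 18 of them lower, and of -0.25 with risperidone, 17 lower. The glutamatergic list went the other way, with medians of 0.44 and 0.25, and no gene of either list was called. Markers of some other cells were lower with clozapine against vehicle too, and others were higher. Of the oligodendrocyte markers 9 of 10 were higher, with a median of 0.16, and of the pan-neuronal genes 9 of 10, with a median of 0.25, and 0 were called. Of the microglial markers 9 of 10 were lower, with a median of -1.25, of the oligodendrocyte precursor markers 5 of 5, with a median of -0.54, and of the cholinergic markers 4 of 5, with a median of -1.38, and none was called. The vehicle neuron library of batch 2 stood apart with 555 CPM of microglial markers, against 82.4 to 190 CPM in the other 5 neuron libraries. The part of these cells in the differences was not tested.

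In astrocyte fractions, with clozapine against vehicle 8 of 9 were lower, with a median of -0.42, and 3 were lower in both batches. With risperidone against vehicle 6 were lower, with a median of -0.45, and 5 were lower in both batches. Between the drugs the median was -0.14 and no gene kept 1 direction in both batches. With clozapine against vehicle the 10 pan-neuronal genes were all higher, with a median of 0.57, as were the 12 glutamatergic markers, with a median of 0.62. None of these was called, and their part was not tested. None of the 9 had an unadjusted p under 0.05 in these 3 comparisons, by edgeR or DESeq2. Gpr6 had the widest errors, at -1.80 (SE 1.24) with clozapine against vehicle. Penk differed by -0.65 (SE 0.39) with clozapine and by -0.51 (SE 0.39) with risperidone. Pdyn went opposite ways in the 2 batches with clozapine against vehicle, at -1.45 within batch 2 and 1.38 within batch 1.

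The comparison of batches asks whether the genes differed between the 2 rounds of pools. In microglia fractions all 9 were higher in batch 2, and 3 were called, where 3.2% of genes tested were called higher. Penk rose by 1.43 (SE 0.20, edgeR adjusted p = 0.000231), Pdyn rose by 1.47 (SE 0.35, edgeR adjusted p = 0.0152) and Pde10a rose by 0.72 (SE 0.19, edgeR adjusted p = 0.0307). Rgs9, at 0.71 (SE 0.23), had an edgeR adjusted p = 0.0929, and DESeq2 called it as the fourth, at an adjusted p = 0.0493. Penk stayed called without each library in turn, Pdyn was lost without either vehicle library, and Pde10a was lost without either vehicle or either clozapine library, and with no treatment term (edgeR adjusted p = 0.132). The difference of Penk was 1.39 with clozapine, 1.28 with risperidone and 1.76 with vehicle on the scaled log2 scale. Within clozapine 7 of the 9 genes were higher in batch 2 after scaling and 6 on plain CPM, and within risperidone and within vehicle all 9 were on both scales.

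Most neuronal lists were higher in batch 2 of the microglia fraction, though the 5 cholinergic markers were all lower, with a median of -0.27 and 0 called, and 2 of the 4 olfactory bulb genes were higher and 2 lower. Of the 10 pan-neuronal genes 8 were called higher, with a median of 1.41, and of the 14 GABAergic interneuron genes 9, with a median of 1.16. Of the other striatal projection neuron genes 6 of 21 were called higher, among them Scn4b at 1.29, Ano3 at 1.26, Sp9 at 1.05, Gnal at 0.94 and Adcy5 at 0.76, and Drd1 was called at 1.19. The enzyme genes Pcsk1, Pam and Pcsk2 were called at 1.47, 1.37 and 1.33. Astrocyte markers ran the other way, with 8 of 10 called lower and a median of -1.11. The 9 striatal projection neuron genes had a median of 0.71. The part of neuronal RNA as a whole in their difference was not tested.

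**Figure D5:**
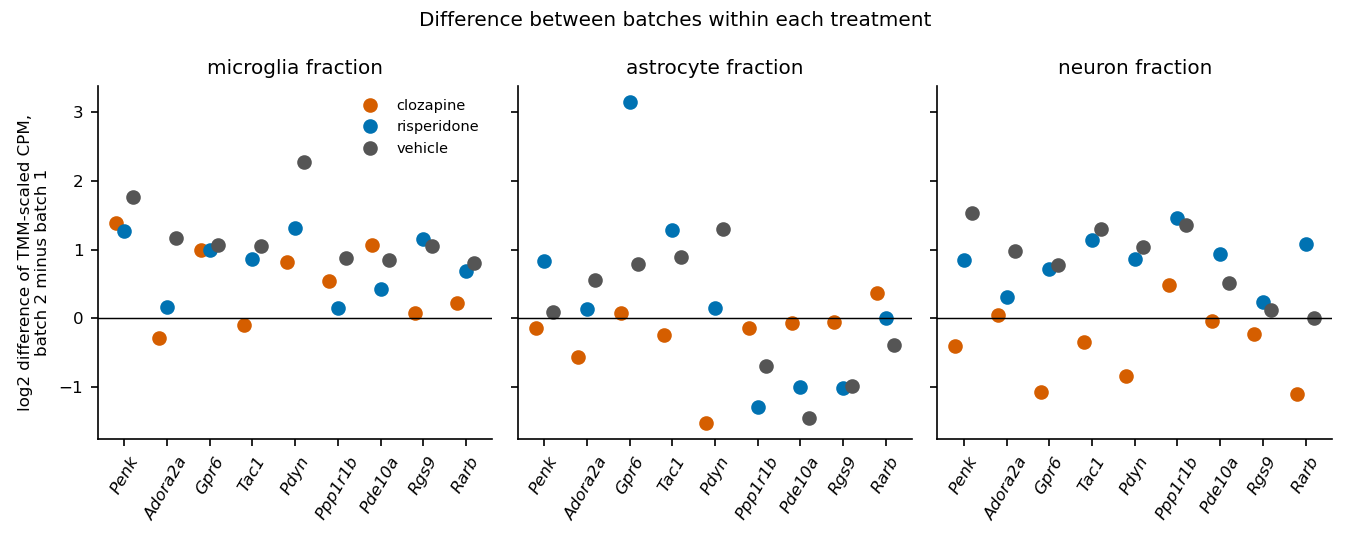
Difference between batch 2 and batch 1 for each of the 9 striatal projection neuron genes within each treatment, as log2 of CPM after TMM scaling, by fraction. All 9 risperidone and all 9 vehicle points lie above 0 in the microglia fraction, while in the astrocyte fraction Ppp1r1b, Pde10a and Rgs9 lie below 0 in all 3 treatments.

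In astrocyte fractions edgeR and DESeq2 called 0 of the 9 between batches (background 4.91%), with 3 at an unadjusted p under 0.05 in each. Of all genes tested in edgeR, 23.1% had an unadjusted p under 0.05. All 3 were lower in batch 2 in edgeR, Pde10a by -0.76 (SE 0.27), Ppp1r1b by -0.63 (SE 0.25) and Rgs9 by -0.61 (SE 0.24). Of the 12 glutamatergic markers 12 were lower in batch 2, with a median of -0.65 and 1 called, and of the 10 pan-neuronal genes 7 were lower, with a median of -0.44 and 0 called. Oligodendrocyte markers summed to 11772, 12609 and 9691 CPM with clozapine, risperidone and vehicle in batch 2, against 26642, 36827 and 31029 CPM in batch 1. Gene by gene in the fit, 7 of these 10 markers were higher in batch 2 and 3 lower, with a median of 0.36. Of them 1 was called higher and 2 lower. The part of these lists in the levels of the 3 genes was not tested. Without either clozapine library 4 of 9 were called, but calls over all genes also grew, to 4884 without that of batch 1 and 4984 without that of batch 2, against 1308 with all libraries. On plain CPM 6 of 9 genes were higher in batch 2 in each treatment, whereas after scaling 2 were with clozapine and 5 with each of risperidone and vehicle. In neuron fractions edgeR called 0 of the 9 (background 0.178%), with Ppp1r1b alone at an unadjusted p under 0.05, higher by 1.06 (SE 0.22, edgeR adjusted p = 0.0698). Of all genes tested in that fit, 25.0% had an unadjusted p under 0.05. DESeq2 called Ppp1r1b with an adjusted p = 0.00549, and Penk was a further gene under 0.05 unadjusted there. Without the clozapine library of batch 1 edgeR called 3 of 9, and without that of batch 2 it called 4. Calls over all genes were 2028 and 3119 in those fits, against 39 with all libraries. After scaling, 2 of 9 genes were higher in batch 2 with clozapine, 9 with risperidone and 8 with vehicle, against 2, 7 and 7 on plain CPM. Oligodendrocyte markers summed to 5361 CPM with clozapine, 6017 CPM with risperidone and 5586 CPM with vehicle in neuron fractions of batch 2, against 28139, 17454 and 18018 CPM in batch 1, and their part in these differences was not tested.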

How the data were processed

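Each library came with its own deposited counts table. Per the file headers, featureCounts 2.0.8 assigned reads to exons of genes on GRCm39, with multiple overlaps allowed and without a strand option, so counts of overlapping genes are uncertain. FastQC is named in the submitters' processing notes. No aligner is named in the sources used. Symbols came from a table of gene identifiers, which named 52029 of 56953 identifiers, holding 96.2% of counts. Gene positions and exon lengths are from the file headers. A second deposited table of all libraries was not used.

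The main test was that of edgeR 4.0.16 under R 4.3.3 (quasi-likelihood, filterByExpr, TMM scaling, Benjamini-Hochberg adjustment over all genes tested, called under 0.05), with DESeq2 1.42.0 as an alternative. Drug comparisons used the 6 libraries of a fraction with no batch term, and the batch as a block was an alternative. The SEs printed for drug comparisons are from the fit without that block. Batches were compared with treatment as a term, and fractions with the pool as a block, since the 3 libraries of a pool come from the same 5 animals. SE was obtained from the log2 difference and its F value. Batch pairs the samples: the labels name it, and deviations of libraries of 1 batch from their group means correlated at 0.12 to 0.55 in all 9 pairs. Separate pools are separate animals, and intervals rest on 2 per group. Correlations are Pearson's r on log2 CPM (prior count 2). Other alternatives were RLE scaling, no low-count filter, and leaving out libraries or pools. All 9 genes are described, with every called gene of the other striatal list and up to 3 called genes of each other list, those with the smallest p. 1 gene outside the 9 is not reported here. Scripts were tested on simulated data. The members and lists were chosen with earlier results of these data known.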

Additional observations from a re-analysis of the deposited data

Results flagged for a closer look

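After TMM scaling, 9 cases had a gene move 1 way in every pair of 1 fraction and the opposite way in every pair of another. None of these differences was tested, and some of the pairs went the other way on plain CPM. Between batch 2 and batch 1, Ppp1r1b averaged 0.52 on the scaled log2 scale in microglia fractions and -0.71 in astrocyte fractions, a gap of 1.23, and its gap between astrocyte fractions and neuron fractions, at 1.1 in neurons, was -1.81. Pde10a averaged 0.78 in microglia fractions and -0.84 in astrocyte fractions, a gap of 1.62. Rgs9 averaged 0.76 in microglia fractions and -0.68 in astrocyte fractions, a gap of 1.44.

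With risperidone against vehicle, Tac1 averaged -1.02 in microglia fractions and 0.13 in neuron fractions, a gap of -1.16. Pdyn averaged -0.52 and 0.24 in those fractions, a gap of -0.76. Gpr6 averaged 0.31 in microglia fractions, -1.71 in astrocyte fractions and 0.15 in neuron fractions, which gave gaps of 2.01 between microglia and astrocyte fractions and -1.85 between astrocyte and neuron fractions. The Gpr6 value in astrocyte fractions rests on a library with 1 count. With clozapine against risperidone, Penk averaged 0.32 in microglia fractions and -0.80 in neuron fractions, a gap of 1.12. On plain CPM Pdyn in microglia fractions of batch 1 was higher with risperidone, at 4.54 against 3.99 CPM with vehicle. Tac1 in neuron fractions of batch 2 was lower with risperidone, at 26.7 against 27.4 CPM with vehicle. Penk in microglia fractions of batch 2 was lower with clozapine, at 81.5 against 85.0 CPM with risperidone. Each case rests on 2 pairs of pools for drugs and 3 for batches.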

How the results depend on the processing

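Alternatives were RLE scaling, no low-count filter, DESeq2, the replicate block or its absence, no treatment term for batches, and each library left out, and leaving out whole pools was chosen after values were seen. The count of the 9 genes called was 0 in all 9 drug comparisons under every alternative run, and 7 between microglia and neuron fractions without each library, 6 with no replicate block (Pdyn lost, edgeR adjusted p = 0.0562) and 6 without the risperidone pool of batch 2. Between astrocyte and neuron fractions it was 6, 5 with no replicate block (Pdyn lost), 7 with DESeq2 (Gpr6 gained), 3 to 9 without single libraries, 3 without the clozapine pool of batch 2 and 2 without the risperidone pool of batch 2. Between microglia and astrocyte fractions it was 1, 0 to 1 without single libraries, and 0 without the batch 1 pool of clozapine, risperidone or vehicle. Between batches it was 3 in microglia fractions (1 to 3 without single libraries, 2 with no treatment term, where Pde10a was lost), 0 in astrocyte fractions (0 to 4), and 0 in neuron fractions (0 to 4), where no low-count filter, DESeq2 and no treatment term each gave 1. Between pools it was 0, and 3 with no low-count filter or DESeq2. With the replicate block no call among the 9 changed in the drug comparisons. The Penk difference without single libraries ran from -1.74 to 0.22 for clozapine against vehicle in microglia fractions, from -1.52 to 0.10 in neuron fractions, and from -0.68 to 0.94 for risperidone against vehicle in neuron fractions. Over all genes, drug comparisons gave 0 calls, 4 to 171 with no low-count filter, 0 to 19 with DESeq2, 0 to 10 with the replicate block, and up to 266 without a library. Between batches in neuron fractions 39 became 1862 with no low-count filter, 1292 with DESeq2 (52.4% higher, against 35.9%) and 320 with no treatment term, and in microglia fractions 1402 became 931 with no treatment term. Between pools 12 became 801 with no low-count filter and 662 with DESeq2. Between astrocyte and neuron fractions 7635 became 11755 with DESeq2 and 3049 to 12881 without single pools. Without single libraries these counts over all genes ran from 506 to 1381 between batches in microglia fractions, 79 to 4984 in astrocyte fractions (1308 with all), 0 to 3119 in neuron fractions, 3968 to 12689 between astrocyte and neuron fractions, and 2 to 224 between pools. The cause was not tested, except that leaving out a library or pool leaves fewer samples. Gpr6, at 1 to 59 counts, is limited by depth.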
